A study of Schmidtea mediterranea with 6 samples.

Results

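The transcripts that were clearly lower after cct3A RNAi are described here in Schmidtea mediterranea, a planarian flatworm whose adult stem cells replace tissue lost to amputation. The animals were of the asexual strain. A transcript was a member if its mean over the 6 libraries was at least 5 normalised TPM, its gfp(RNAi) mean was under 1000, its highest cct3A(RNAi) value lay below its lowest gfp(RNAi) value, and its log2 difference was at most -0.5. The log2 difference is log2(cct3A(RNAi) mean + 0.5) minus log2(gfp(RNAi) mean + 0.5), and a value of -1 means a 2-fold lower level. The RNAi target itself was left out. Of the 26558 transcripts listed, 131 were members, against 16 for the mirror-image rule that asks for higher values after cct3A RNAi. The members were chosen by this very contrast, so their group differences are a description and carry no test.

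The animals were cct3A(RNAi) planarians, which had received double-stranded RNA against cct3A, and gfp(RNAi) planarians, which had received double-stranded RNA against gfp, a sequence that is foreign to the worm. The study describes both groups as starved, and both were sampled as trunks at 72 hours of regeneration (72hR), after removal of head and tail. Each group had 3 RNA-seq libraries, with RNA pooled from 5 trunks in each. The values are TPM (the share of a transcript in its library, corrected for transcript length) rescaled by a factor per library. Their sum per library was 1004960 to 1048450 for cct3A(RNAi) and 959963 to 999939 for gfp(RNAi). RNA came from whole trunks with all their cell types, so fewer cells of a type and less RNA per cell cannot be told apart. cct3A, the targeted transcript (dresden_comp435_c0_seq1), was at 13.3, 13.4 and 14.0 normalised TPM in cct3A(RNAi) libraries, against 385.98, 387.3 and 402.8 in gfp(RNAi) libraries.

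The protein made from cct3A is part of TRiC, a double-ring chaperonin of the cytosol in which actin, tubulin and many other newly made proteins fold. Proteins that enter the endoplasmic reticulum (ER) fold with other helpers, among them protein disulphide isomerases, which form and rearrange the disulphide bonds of secreted and membrane proteins. The unfolded protein response adjusts the ER's stock of such helpers to its load of unfolded protein. The members below are given by their identifiers in the Dresden planarian transcriptome, since the gene tables used here paired only 1 of the 131 with a name. The other 130 carry no function here.

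The member with a name was pdia3 (dresden_comp1164_c0_seq1), a protein disulphide isomerase of the ER that in mammals acts on glycoproteins together with calreticulin and calnexin. It was at 60.3, 74.2 and 64.9 normalised TPM in cct3A(RNAi) libraries, against 101.1, 141.8 and 96.9 in gfp(RNAi) libraries. Its means were 66.5 ± 7.04 and 113.2 ± 24.8 (SD, n = 3 each), a log2 difference of -0.76. Replicate 2 was the highest library of both groups, and the gfp(RNAi) library of that number stood well above the other two controls. Without both of these libraries the limma fit gave pdia3 a log2 difference of -0.66.

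Most other transcripts of disulphide isomerases did not pass the test. Of the 9 transcripts that the study's tables list for this family, 2 passed the limma test across all transcripts at an adjusted p of 0.05, both lower, and none passed as higher. Over all transcripts tested with limma, 2.46% passed as lower (445 transcripts) and 1.78% as higher (321), a split that became 1156 lower and 103 higher with all libraries rescaled to the same sum. For pdia3 (limma adjusted p = 0.0415), a call that the choice of members favours, the threshold was missed in all 6 fits that left out 1 library (adjusted p between 0.0502 and 0.116), with no filter on low values (0.124) and without a variance trend (0.0964). The second was pdia13 (dresden_comp10003_c0_seq1), which is not a member, at 14.2, 15.1 and 15.1 normalised TPM in cct3A(RNAi) libraries and at 17.7, 17.6 and 18.0 in gfp(RNAi) libraries (limma log2 change -0.26, adjusted p = 0.0289). Its call was lost in 5 of the 6 fits that left out 1 library, all but the one without cct3A(RNAi) replicate 2 (adjusted p between 0.0453 and 0.111 over the 6, and between 0.0177 and 0.123 over all alternatives). pdia12 (dresden_comp6702_c0_seq1) was at 11.7, 14.5 and 13.5 in cct3A(RNAi) libraries and at 15.8, 19.1 and 16.9 in gfp(RNAi) libraries, and it missed the threshold (limma log2 change -0.37, adjusted p = 0.0631, and between 0.0249 and 0.170 over its alternatives). The median limma log2 change over the 9 was -0.05, against 0.00337 over all tested transcripts. The study picked pdia3, pdia12 and pdia13 on these same libraries, so their direction is not independent evidence.

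Members with the largest decreases came at very different levels. The furthest below the controls was dresden_comp324_c0_seq1, at 71.4, 67.0 and 68.9 normalised TPM in cct3A(RNAi) libraries and at 164.1, 161.9 and 177.2 in gfp(RNAi) libraries. Its means were 69.1 ± 2.22 and 167.7 ± 8.28 (SD, n = 3 each), a decrease of 58.8% and a log2 difference of -1.27. The 2 groups lay far apart, and the gap between the groups, log2 of the lowest gfp(RNAi) value minus log2 of the highest cct3A(RNAi) value, was 1.18.

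dresden_comp4808_c0_seq1 showed a change of like size with a tight spread at a lower level. It was at 13.3, 15.0 and 14.3 normalised TPM in cct3A(RNAi) libraries, against 30.3, 30.9 and 30.4 in gfp(RNAi) libraries, a log2 difference of -1.08. The controls agreed to within 0.015 (SD of the log2 values, n = 3), and the gap between the groups was 1.02. dresden_comp7785_c0_seq1 (log2 difference -1.09) had 5.02, 7.04 and 6.02 in cct3A(RNAi) libraries and 13.0, 15.9 and 11.3 in gfp(RNAi) libraries. dresden_comp7074_c0_seq1 (log2 difference -1.07) had 3.12, 4.56 and 3.54 in cct3A(RNAi) libraries and 8.21, 10.2 and 6.75 in gfp(RNAi) libraries. In both of these replicate 2 was the highest library of each group, and the gaps were narrower, at 0.69 and 0.57. These 4 were all the members with a log2 difference of -1 or below.

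The other 6 of the 10 largest decreases lay between -0.99 and -0.90 on the log2 scale and all had cct3A(RNAi) means under 5 normalised TPM. They were dresden_comp5651_c0_seq1, dresden_comp6147_c0_seq1, dresden_comp16674_c0_seq1, dresden_comp10690_c0_seq1, dresden_comp3330_c0_seq1 and dresden_comp6560_c0_seq1. dresden_comp10690_c0_seq1 was the tightest of them, at 3.51, 3.24 and 3.89 in cct3A(RNAi) libraries and at 7.11, 7.87 and 6.397 in gfp(RNAi) libraries. dresden_comp6560_c0_seq1 was the loosest in the cct3A(RNAi) group, at 2.71, 5.79 and 3.95, against 7.70, 10.03 and 6.77 in gfp(RNAi) libraries. Its highest cct3A(RNAi) library came within 0.23 on the log2 scale of its lowest control. dresden_comp16674_c0_seq1 was the most variable of the 131 among controls, at 4.05, 5.50 and 3.41 in cct3A(RNAi) libraries and at 6.45, 11.2 and 8.40 in gfp(RNAi) libraries.

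**Figure D1:**
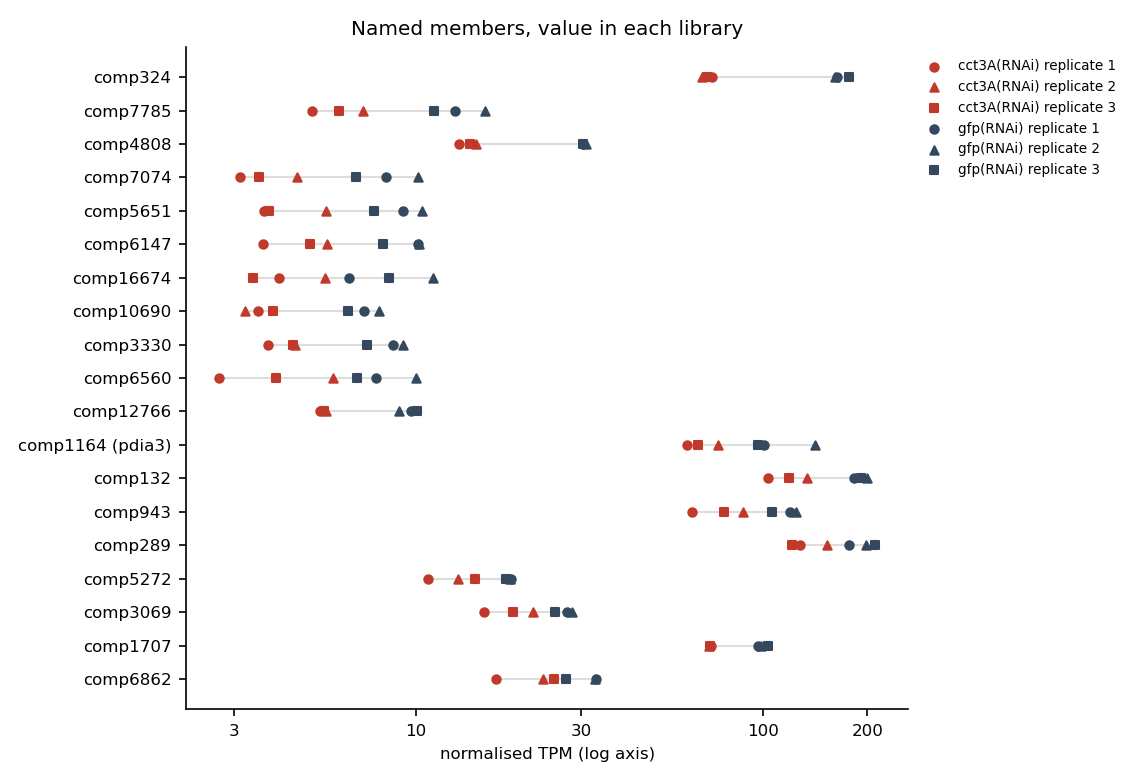
Normalised TPM (x axis, log scale) of the 19 named members in each of the 6 libraries, with cct3A(RNAi) in red and gfp(RNAi) in dark blue, replicates 1, 2 and 3 as circle, triangle and square, and a grey line joining the lowest to the highest value. Members run from the most negative log2 difference at the top, with comp324 at -1.27, to -0.50 at the bottom, and the triangle is the rightmost symbol of its colour in most of them.

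The most abundant members showed decreases of different sizes. dresden_comp289_c0_seq1 had the highest control mean, at 127.8, 153.1 and 121.7 normalised TPM in cct3A(RNAi) libraries and at 176.8, 198.9 and 210.8 in gfp(RNAi) libraries (log2 difference -0.54). dresden_comp132_c0_seq1 was at 103.4, 134.0 and 118.8 in cct3A(RNAi) libraries and at 183.2, 199.8 and 191.8 in gfp(RNAi) libraries (log2 difference -0.69). dresden_comp943_c0_seq1 was at 62.4, 87.6 and 77.4 in cct3A(RNAi) libraries and at 119.95, 124.9 and 106.4 in gfp(RNAi) libraries (log2 difference -0.62). With comp324 (-1.27) and pdia3 (-0.76), these were the 5 members with the highest control means, beside a median log2 difference of -0.62 over all members. In all 3, replicate 2 was the highest cct3A(RNAi) library.

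A tight spread or a wide gap between the groups came with differences of several sizes. The log2 difference was -0.50 for dresden_comp1707_c0_seq1, -0.77 for dresden_comp12766_c0_seq1 and -0.91 for dresden_comp3330_c0_seq1. dresden_comp1707_c0_seq1 was at 71.04, 69.9 and 70.3 normalised TPM in cct3A(RNAi) libraries, against 97.1, 99.1 and 103.4 in gfp(RNAi) libraries, and its cct3A(RNAi) values had the smallest spread of all members (SD 0.012 on the log2 scale, n = 3). dresden_comp12766_c0_seq1 was at 5.31, 5.52 and 5.43 in cct3A(RNAi) libraries and at 9.73, 8.97 and 10.1 in gfp(RNAi) libraries, with a gap of 0.70 that was the fourth widest after comp324, comp4808 and comp10690. dresden_comp3330_c0_seq1 had the fifth, at 3.75, 4.48 and 4.44 in cct3A(RNAi) libraries and at 8.62, 9.18 and 7.26 in gfp(RNAi) libraries. Its controls were not tight, with an SD of 0.16 on the log2 scale (n = 3), equal to the median over members. The gap over all 131 members ran between 0.00538 and 1.18, with a median of 0.30.

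The threshold of -0.5 fell in a dense stretch of values. Just inside it were dresden_comp5272_c0_seq1, dresden_comp3069_c0_seq1, dresden_comp1707_c0_seq1 and dresden_comp6862_c0_seq1, all with a log2 difference of -0.50. dresden_comp6862_c0_seq1, the last one in, was at 17.0, 23.2 and 25.04 normalised TPM in cct3A(RNAi) libraries and at 33.1, 32.8 and 27.1 in gfp(RNAi) libraries. Just outside it, with all other parts of the rule met, were dresden_comp5814_c1_seq1 (-0.498), dresden_comp7832_c0_seq1 (-0.495), dresden_comp8164_c0_seq1 (-0.494) and dresden_comp11057_c0_seq1 (-0.493). dresden_comp5814_c1_seq1, the first one out, was at 6.02, 8.10 and 8.11 in cct3A(RNAi) libraries and at 9.64, 13.4 and 8.97 in gfp(RNAi) libraries. Another 23 transcripts had a difference as large as the members' but overlapped between groups.

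Taking the 131 members as a list, the log2 difference had a median of -0.62, with quartiles at -0.72 and -0.55, against a median of 0.016 over the transcripts that passed both level filters. Only 4 members lay at -1 or below, 13 lay between -1 and -0.8, 21 between -0.8 and -0.7, 42 between -0.7 and -0.6, and 51 between -0.6 and -0.5. The percent decrease of the means ranged between 29.5% and 58.8%, and 8 members were at least halved. No member was absent after cct3A RNAi, since 0 of the 131 had a highest cct3A(RNAi) value under 1 normalised TPM, and the lowest cct3A(RNAi) mean was 3.55. Summed over members, the level was 1662, 2061 and 1860 normalised TPM in cct3A(RNAi) libraries, against 2882, 3225 and 2855 in gfp(RNAi) libraries. This sum was 0.162% to 0.205% of all values in a cct3A(RNAi) library and 0.286% to 0.336% in a gfp(RNAi) library.

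**Figure D2:**
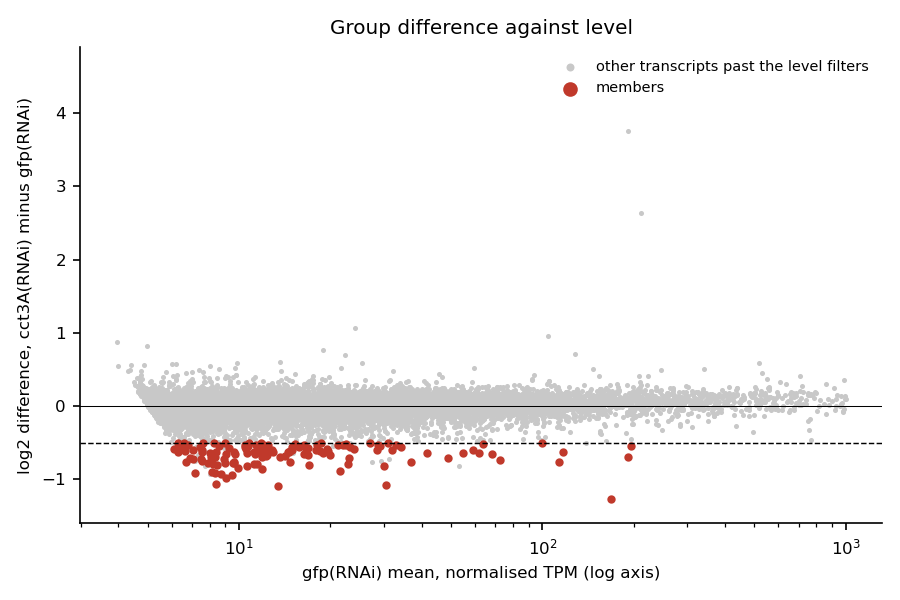
Log2 difference, cct3A(RNAi) minus gfp(RNAi) (y axis), against the gfp(RNAi) mean in normalised TPM (x axis, log scale) for every transcript past the level filters, with the 131 members in red and the rule's limit of -0.5 dashed. Most members sit at control means under 20, and comp324 is the lowest point at -1.27; grey points below the dashed line overlap between groups.

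Separation of the groups alone was common in these libraries. Of the 11743 transcripts past the level filters, 2006 (17.1%) had every cct3A(RNAi) value below every gfp(RNAi) value, and 2394 (20.4%) had every cct3A(RNAi) value above. With all libraries rescaled to the same sum these counts were 3704 and 632, the rule found 194 transcripts, and its mirror image found 9. As deposited, the full rule kept 1.12% of the 11743. In the limma fit 80 of the 131 members passed as lower at an adjusted p of 0.05, beside 2.46% of all tested transcripts, a count that the rule itself favours and from which nothing is read. With the rule and the fit applied to the other libraries, 26 of 102 transcripts passed without cct3A(RNAi) replicate 1, 124 of 206 without replicate 2 and 27 of 163 without replicate 3. Without gfp(RNAi) replicate 1 it was 12 of 152, without replicate 2 it was 13 of 90, and without replicate 3 it was 32 of 169. Of all tested transcripts, 0.365%, 1.99%, 0.375%, 0.0832%, 0.1% and 0.432% passed as lower in these 6 fits, in the same order. These counts too are favoured by the rule.

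Members were more frequent among transcripts of low level. They made up 45 of the 2629 transcripts (1.71%) with a control mean under 10 normalised TPM and 52 of the 3175 (1.64%) between 10 and 20. They made up 22 of the 3469 (0.634%) between 20 and 50, and 12 of the 2469 (0.486%) at 50 or more. Low transcripts also vary more between libraries, and the part of this spread in the counts by level was not tested. The median control mean was 12.3 normalised TPM for members and 20.3 for all transcripts past the filters.

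No assembly component, taken here as the comp number of the identifiers, held more than 1 member (0 components with 2 or more). The c number of the identifiers was not used in this grouping, so a shared component need not mean a shared locus. Few components could have done so. Another transcript of the same component was listed for 3 members (2.29%) and for 222 of the 11743 transcripts past the level filters (1.89%). For 3 members the table lists another transcript of the same component, and in each case that other transcript had a log2 difference near 0, at 0.05, 0.03 and -0.03. Beside the member dresden_comp2109_c1_seq1, dresden_comp2109_c0_seq1 averaged 86.6 normalised TPM in cct3A(RNAi) libraries and 83.5 in gfp(RNAi) libraries. Beside dresden_comp3493_c0_seq1, dresden_comp3493_c1_seq1 averaged 76.5 in cct3A(RNAi) libraries and 74.96 in gfp(RNAi) libraries. Beside dresden_comp4144_c0_seq1, dresden_comp4144_c1_seq2 averaged 7.32 in cct3A(RNAi) libraries and 7.46 in gfp(RNAi) libraries. None of the 3 passed the limma test (adjusted p = 0.385, 0.719 and 0.856). Each of the 3 differs from its member in the c number, so they are not read as transcripts of the same locus.

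The members varied within each group far more than other transcripts did. The SD of log2 values within a group had a median of 0.21 over members in cct3A(RNAi) libraries and 0.16 in gfp(RNAi) libraries, against 0.059 and 0.054 over all transcripts past the level filters. The rule bears on this spread in both directions, since it asks for groups that do not overlap and for a large difference, and its part in the excess was not tested. The excess was present at each level. For control means of 50 or more the median SD was 0.18 in cct3A(RNAi) and 0.13 in gfp(RNAi) libraries for the 12 members, against 0.048 and 0.046 for the 2457 other transcripts. For control means under 10 it was 0.25 in cct3A(RNAi) and 0.16 in gfp(RNAi) libraries for the 45 members, against 0.077 in both groups for the 2584 others.

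This spread had a common direction. In cct3A(RNAi) libraries, replicate 2 was the highest for 103 of the 131 members (78.6%) and replicate 1 the lowest for 96 (73.3%). In gfp(RNAi) libraries, replicate 2 was the highest for 101 (77.1%) and replicate 3 the lowest for 77 (58.8%). Replicate 2 was the highest in both groups for 92 members (70.2%), against 1472 of the 11742 transcripts past the level filters (12.5%, the target left out). With all libraries rescaled to the same sum, these counts were 100 members (76.3%) and 2941 transcripts (25%). The rule names no library of a group, but members varied more within groups than the other transcripts did. No share was computed for other transcripts of like spread, so the part of the rule in these shares was not tested. Members share these 6 libraries and are not independent of each other, so the shares are given without a test.

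**Figure D3:**
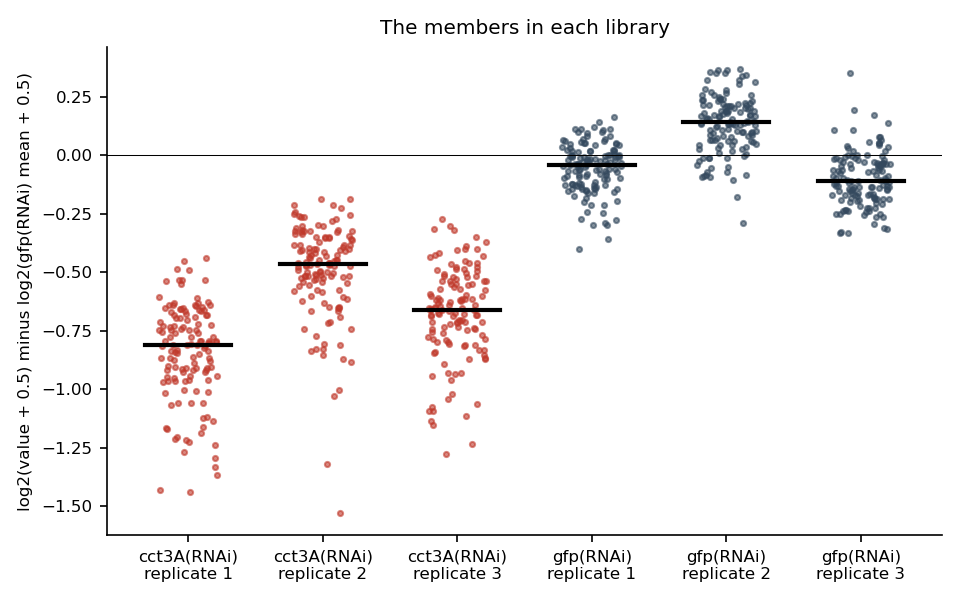
Each of the 131 members (points) in each library, as log2(value + 0.5) minus log2(gfp(RNAi) mean + 0.5) (y axis), with the median over members as a black bar. The medians are -0.81, -0.47 and -0.66 in cct3A(RNAi) replicates 1, 2 and 3 and -0.04, 0.14 and -0.11 in gfp(RNAi) replicates 1, 2 and 3, so replicate 2 is the highest library of both groups.

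Relative to the mean log2 value of its own group, the median member deviated by -0.17, 0.18 and -0.0030 in cct3A(RNAi) replicates 1, 2 and 3. It deviated by -0.03, 0.15 and -0.10 in gfp(RNAi) replicates 1, 2 and 3. Over all transcripts past the filters these median deviations stayed between -0.0032 and 0.0069, as the scaling of the deposited values by a factor per library would give. The size of the difference depended on which libraries were set against each other. The median member difference was -0.96 between cct3A(RNAi) replicate 1 and gfp(RNAi) replicate 2, and -0.34 between cct3A(RNAi) replicate 2 and gfp(RNAi) replicate 3. Between libraries with the same number it was -0.77, -0.60 and -0.56 for replicates 1, 2 and 3.

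The order of libraries changed with the size of the difference across the whole table. Replicate 2 was the highest library of both groups for 222 of the 556 transcripts (39.9%) with a log2 difference between -0.5 and -0.25, and for 357 of the 1693 (21.1%) between -0.25 and -0.1. It was so for 610 of the 6846 transcripts (8.91%) between -0.1 and 0.1, for 150 of the 2238 (6.70%) between 0.1 and 0.25, and for 32 of the 255 (12.5%) at 0.25 or more. Among the 1874 transcripts that were lower without overlap but by less than the rule asks, the share was 23.2%. The share among members was 66.7% for the 45 with control means under 10, 80.8% for the 52 between 10 and 20, and 58.8% for the 34 at 20 or more, against 17.4%, 14.7% and 9.21% of all transcripts at those levels. Whether replicate numbers stand for a shared day, colony or batch is not given by the labels, and the part of such a source in these shares was not tested.

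**Figure D4:**
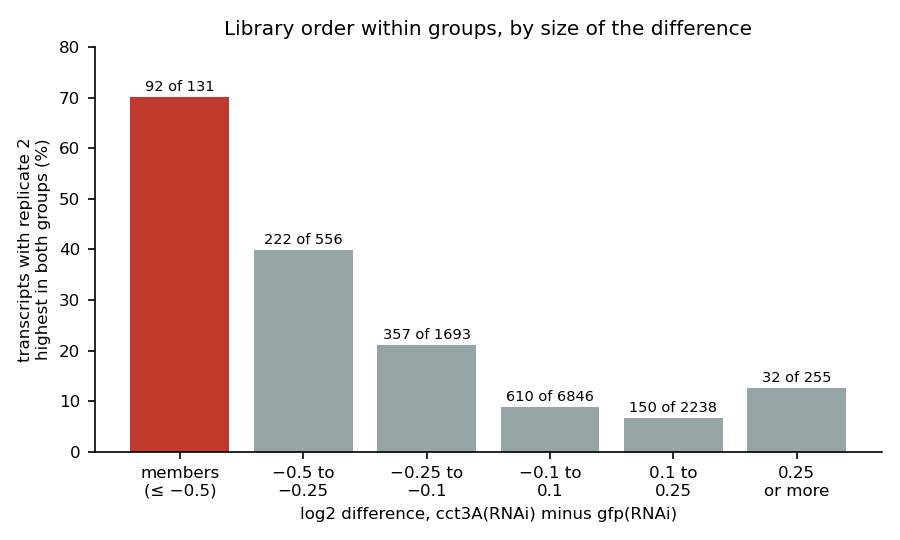
Percent of transcripts whose replicate 2 was the highest library in both groups (y axis, bars from 0), by log2 difference of cct3A(RNAi) minus gfp(RNAi) (x axis), with the members in red, other transcripts past the level filters in grey, and the counts above the bars. The share is 70.2% in members and 8.91% in transcripts with a difference between -0.1 and 0.1.

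The remaining 39 members did not have replicate 2 on top in both groups. For 19 it was highest in neither group and for 20 in 1 group only. Their median log2 difference was -0.63, against -0.62 for the 92, and their spread was smaller, with a median SD of 0.17 in cct3A(RNAi) and 0.098 in gfp(RNAi) libraries, against 0.23 and 0.19 for the 92. comp324, comp10690, comp12766 and comp1707 belong to the 39, whereas pdia3, comp4808, comp7785 and comp132 belong to the 92. Among the 47 transcripts of the study's chaperone and stress lists outside cct3A, 3 had replicate 2 highest in both groups, namely the member pdia3 and, outside the members, pdia12 and cdk1. cdk1 encodes a kinase needed for mitosis. It was at 5.28, 6.29 and 5.87 normalised TPM in cct3A(RNAi) libraries and at 6.78, 7.45 and 6.68 in gfp(RNAi) libraries, and it did not pass the limma test (log2 change -0.24, adjusted p = 0.105). The study, which used a sleuth Wald test on these same libraries, reported cdk1 as lower after cct3A RNAi.

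To read a library that had taken no part in the choice, the rule was applied to 5 libraries and the left-out one was then compared with the 3 libraries of the other group. With cct3A(RNAi) replicate 1 left out, 102 transcripts were found, and the left-out value lay below all 3 controls in 96 (94.1%), beside 34.1% of all transcripts past the level filters. With cct3A(RNAi) replicate 2 left out, 206 were found and 181 (87.9%) lay below, beside 31.4%. With cct3A(RNAi) replicate 3 left out, 163 were found and 146 (89.6%) lay below, beside 28.8%. The 3 libraries on the other side of each comparison had taken part in the choice, so only the left-out value itself is independent of it, and the background shares are over transcripts not chosen on those libraries. The choice thus favours high shares, and nothing is read from their distance to the background.

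With a gfp(RNAi) library left out, the left-out value lay above all 3 cct3A(RNAi) values in 134 of 152 transcripts (88.2%) for replicate 1, in 87 of 90 (96.7%) for replicate 2 and in 159 of 169 (94.1%) for replicate 3. The same held for 30.6%, 29.5% and 30% of all transcripts past the filters. The choice favours high shares here as well. The 6 turns share libraries and are given without a test.

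The size of the difference in the left-out library varied between the 6 turns. Its median was -0.81, -0.38 and -0.57 in cct3A(RNAi) replicates 1, 2 and 3 and -0.52, -0.75 and -0.47 in gfp(RNAi) replicates 1, 2 and 3, against medians between 0.0050 and 0.020 over all transcripts in the same turns. Each difference sets the left-out library against the mean of the other group, whose libraries had taken part in the choice. The choice thus favours large differences as well, and nothing is read from their distance to the medians over all transcripts. The difference was -0.5 or below for 89 of the 102 transcripts (87.3%) with cct3A(RNAi) replicate 1 left out. With cct3A(RNAi) replicate 2 left out, it was so for 55 of the 206 (26.7%). Of the 131 members, 64 were found in all 6 turns and 119 in at least 4. The fewest turns for a member were 2, for dresden_comp12398_c0_seq1 and dresden_comp7000_c0_seq1. With replicate 2 of both groups left out, a setting chosen after seeing the data, the rule found 157 transcripts, 115 of them members.

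**Figure D5:**
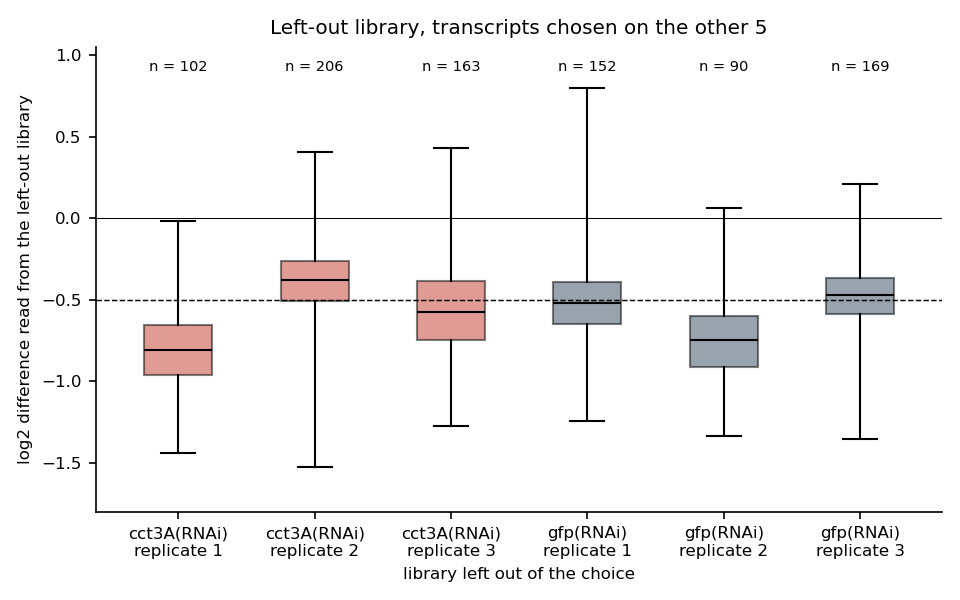
Log2 difference between the left-out library and the mean of the other group, cct3A(RNAi) minus gfp(RNAi) (y axis), for the transcripts that the rule found on the other 5 libraries, by library left out (x axis, number of transcripts above). The libraries of the other group took part in the choice. Boxes span the quartiles with the median as a line, whiskers reach the lowest and highest value, and the dashed line is -0.5; the medians run between -0.81 and -0.38.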

How the data were processed

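RNA-seq libraries of cct3A(RNAi) and gfp(RNAi) trunks (n = 3 each) were grouped and numbered by their sample titles. The deposited values are a normalised signal: the authors estimated TPM on the Dresden transcriptome and divided them by a size factor per library with sleuth. The submitters' processing notes name kallisto 0.43.0 for the TPM. They are not read counts and keep no depth, so no counting interval was computed and precision rests on the spread of 3 libraries. The design had assumed plain TPM. The table held 0 columns not assigned to a library, and 0 pairs of libraries were identical.

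All 18062 transcripts averaging at least 1 were tested with limma (version 3.58.1, R 4.3.3, lmFit and eBayes with a trend, two-sided) on log2(value + 0.5), which understates changes of low transcripts, and p-values were adjusted by Benjamini-Hochberg (threshold 0.05). RNAi target was the single factor. The procedure was run on simulated data with independent noise for each transcript, so that run does not bear on a spread that transcripts share. The labels name no separate cultures, so a p-value here reflects only how far these pools of trunks differ.

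Members and lists were chosen with earlier results of these data known. Named transcripts were members with a name in the study's tables, the 10 most negative differences, the 5 highest control means, the 4 on either side of the threshold, other transcripts of the members' components, the 5 widest gaps, and listed genes needed to place a named member; comp12398, comp7000 and the 3 members with a second transcript were named after their values were seen. Names came from the study's gene tables, because the deposited table gives identifiers only. Markers of cell types could not be paired with identifiers, so cell composition was not analysed here, and no sequence was used. Alternatives were other pseudocounts, scalings, filters and variance settings, a replicate block, other limits in the rule, and leaving out each library.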

Additional observations from a re-analysis of the deposited data

How the results depend on the processing

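The rule found 131 members. Loosening the limit on the log2 difference to -0.4 gave 223, tightening it to -1 gave 4, a mean of at least 1 gave 315 and a mean of at least 10 gave 64. Other pseudocounts, scalings and allowed overlap gave between 112 and 194. With 1 library left out the rule found between 90 and 206 transcripts, the highest without cct3A(RNAi) replicate 2, and 87, 129, 118, 120, 83 and 127 of them were members in the order cct3A(RNAi) replicates 1, 2 and 3 and gfp(RNAi) replicates 1, 2 and 3.

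The limma count of 80 members was 11 with no filter on low values (52 called lower in all) and 12 without a variance trend (24 in all). Among the transcripts found on the remaining libraries, it lay between 12 and 124 with 1 library left out, the lowest without gfp(RNAi) replicate 1 and the highest without cct3A(RNAi) replicate 2. The share of all tested transcripts called lower in these fits ran from 0.0832% to 1.99%, at the same settings. Without replicate 2 of both groups, an alternative chosen after seeing the data, the count was 42 of 157, beside 0.288% of all tested transcripts. Scaling, pseudocount, robust estimation and a mean of at least 5 gave between 72 and 109 of the 131 members, beside 2.11% to 6.4% of all tested transcripts.

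With the replicate number as a block, 111 members passed and 442 transcripts in all, against 445 without the block. The deviations of same-numbered libraries correlated by 0.048, 0.10 and 0.047 over 18062 transcripts. Each library correlated best with its own number, a hint from the data and not from the design, so the block was not used.

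The median difference lay between -0.70 and -0.59 and the summed level, cct3A(RNAi) as percent of gfp(RNAi), between 59.1% and 64.8%. The values of -0.70 and 59.1% came from rescaling to the same sum, with the 131 members kept. After each left-out library the transcripts were chosen anew with the same limit of -0.5, which itself holds these values. The median then lay between -0.67 and -0.59 and the summed level between 60.6% and 64.8%. Over the 131 members kept fixed, the median was -0.54 when cct3A(RNAi) replicate 1 was left out and -0.73 when cct3A(RNAi) replicate 2 was. It was -0.56 when gfp(RNAi) replicate 2 was left out, and the sum lay between 58.9% and 65.6%. Rescaling to the same sum moved the median over all transcripts to -0.06, and 100 members and 2941 of all 11742 transcripts then had replicate 2 highest in both groups, against 87 to 92 members and 1415 to 1472 transcripts otherwise. For the 19 named members, of which 16 were called lower by limma, 82 of 323 refits lost the call and 6 gained one. The 323 include the refits of named members not called at first, which had no call to lose and gave all 6 gains. Sequencing depth is unknown.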
